A study of Mus musculus with 11 samples.

Results

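Hearts of mice labelled as lacking Cd36 throughout the body were compared with hearts of mice in which Cd36 was deleted in endothelial cells, across all genes of the deposited table. The comparison used 6 of the 11 libraries of the series: 3 labelled Total cd36 ko (Total KO) and 3 labelled EC cd36 KO (EC KO). The endothelial deletion came from a Tie2-cre transgene acting on a floxed Cd36 allele, and Tie2-cre is known to act in many blood cells as well as in endothelium. How the total knockout was obtained is not in the labels. All 6 libraries carry the same strain label, a cross of Cd36 loxp mice, and no library with intact Cd36 entered the comparison. The labels give no age, sex, diet or time of collection. Titles also carry unexplained identifying numbers, which fall in separate ranges for the 2 groups, so whatever they stand for cannot be told apart from genotype. It is not said whether each library is a separate animal, and p-values therefore reflect only how much these 6 libraries varied. RNA was taken from whole heart tissue, and ribosomal RNA was depleted before sequencing.

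CD36 is a membrane glycoprotein that binds long-chain fatty acids and helps move them into cells. In the heart it sits on capillary endothelial cells, which fatty acids from the blood must cross, and on cardiomyocytes, which burn them as their main fuel. Macrophages, platelets and adipocytes also carry it. A total knockout removes both routes and also the CD36 of other organs, whereas an endothelial knockout leaves the cardiomyocyte protein in place. The comparison therefore asks what differs in heart RNA between loss of Cd36 everywhere and its loss through Tie2-cre.

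Values are the authors' normalized read counts, that is, reads per gene divided by a factor for each library. Differences are given as log2 of Total KO over EC KO, so that a positive value means higher in Total KO, with a standard error (SE) and a p-value from limma adjusted by the Benjamini-Hochberg method over all 12858 genes tested (mean of at least 10 over the 6 libraries). A gene is said to have risen or fallen where this adjusted p was under 0.05. The Total KO libraries held 11157062, 15974962 and 16753994 reads in genes and the EC KO libraries 2268403, 16560642 and 15609595. EC KO replicate 1 was thus the shallowest, with 1 read worth 6.04 normalized counts against 0.834 to 1.27 in the other 5 libraries. It stood alone at 49.2 on principal component 1, which held 47.3% of the variance and where the other 5 lay between -16.1 and -0.35. The 15 cardiomyocyte markers were all tested and high in every library, their summed level in Total KO being 99.5% of that in EC KO.

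Cd36 itself (chr5:17781690-17888801, minus strand, mm10) had 18847, 23452 and 21266 normalized counts in the Total KO libraries and 30308, 27804 and 25758 in the EC KO libraries. The 3 Total KO values all lay below the 3 EC KO values, and the Total KO mean was 75.8% of the EC KO mean. The difference of -0.40 ± 0.10 did not pass the test (limma, adjusted p = 0.162), though DESeq2 on the same reads called it (adjusted p = 0.0103). Cd36 RNA was therefore abundant in hearts labelled as total knockouts. The table gives 1 value per gene over all exons and all cells, so whether the reads covered the deleted part of the gene was not tested, and the group names below are those of the labels.

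Few genes separated the groups by the test. Of the 12858 genes, 14 passed (0.109%), of which 1 was higher in Total KO (0.00778%) and 13 were lower (0.101%). At an unadjusted p under 0.05 there were 1683 genes (13.1%), 875 higher (6.81%) and 808 lower (6.28%). The 3 values of each group did not overlap at 2534 genes (19.7%), of which 1377 were higher in Total KO (10.7%) and 1157 lower (9.0%). With a log2 difference of at least 1 in size as well, there were 55 higher (0.428%) and 52 lower (0.404%). The median log2 difference over all genes was 0.01. The 14 genes were Per3, which was higher, and Fkbp5, Spock2, Ckap2l, Plat, Mki67, Prc1, Top2a, Iqgap3, Hmmr, Cdkn1a, Rgs5, Trp53inp1 and Pcp4l1, which were lower, with log2 differences of -3.44 to -0.55. Of them, 6 belong to cell division, and the rest are described below with the groups they belong to. The count moved with the libraries: it was 53 without Total KO replicate 1, 2 without Total KO replicate 3, 0 without EC KO replicate 2 (1400 genes at an unadjusted p under 0.05), 8 without EC KO replicate 1 or EC KO replicate 3, and 6 without Total KO replicate 2.

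**Figure D1:**
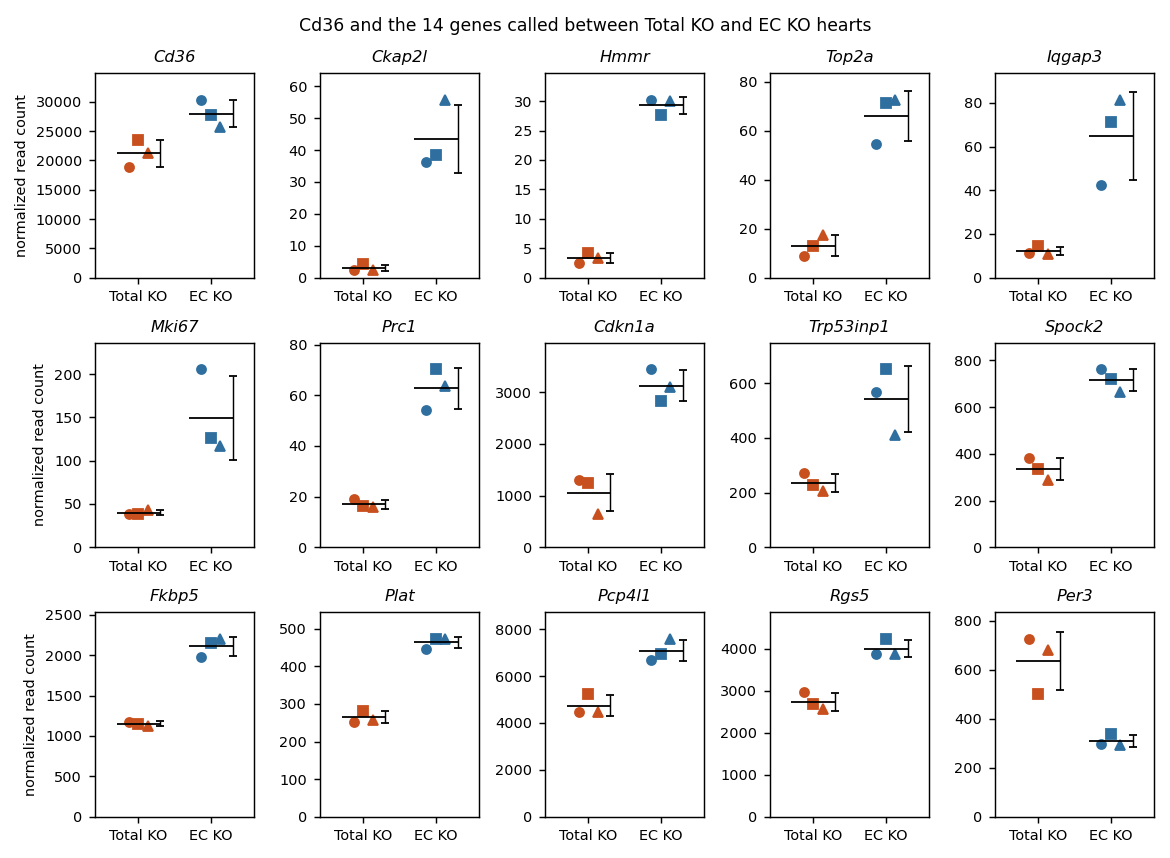
Normalized read counts (y axis, linear from 0) of Cd36 and the 14 genes that passed the test, in Total KO (orange, left) and EC KO (blue, right) hearts; each symbol is 1 library (circle, square and triangle for replicates 1, 2 and 3), the horizontal line is the mean and the error bar the SD (n = 3 each). In all 15 panels the values of the groups do not overlap, and only Per3 is higher in Total KO.

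Several genes of cell division fell in Total KO hearts. Most heart muscle cells of an adult mouse no longer divide, so in an adult heart transcripts of the S and M phases come largely from other cells and are rare. The labels give no age, so whether this holds for these hearts, or whether age differed between the groups, was not tested. Of 34 genes of a cell cycle and mitosis list, 30 passed the filter on low values. Of these, 4 fell (Mki67, Top2a, Prc1 and Hmmr) and 26 did not pass (13.3% called lower, against 0.101% of all genes). Values of the groups did not overlap at 18 members lower in Total KO (60.0% of those tested, against 9.0% of all genes) and at 0 members higher. The median difference of the list was -0.96, against 0.01 over all genes. In bulk tissue, fewer cells of a type and less RNA per cell cannot be told apart. Among markers of other cell types, the summed level of 24 endothelial markers in Total KO was 80% of that in EC KO, without overlap. For 20 macrophage and monocyte markers it was 114%, but the groups overlapped (6398 to 8732 in Total KO, 6189 to 7160 in EC KO). The part of either marker set in the cell cycle difference was not tested.

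Mki67, which encodes the Ki-67 protein that coats mitotic chromosomes, had 38.2, 38.4 and 43.4 normalized counts in Total KO and 205, 126 and 117 in EC KO (log2 -1.83 ± 0.23; limma, adjusted p = 0.0363). Every EC KO library was more than 2 times as high as the highest Total KO library. Top2a, the topoisomerase that untangles replicated chromosomes, had 8.91, 12.8 and 17.5 in Total KO and 54.4, 71.1 and 72.5 in EC KO (log2 -2.29 ± 0.30; limma, adjusted p = 0.0417). Prc1, which bundles microtubules of the central spindle for cytokinesis, had 19.1, 16.2 and 15.8 in Total KO and 54.4, 70.2 and 63.7 in EC KO (log2 -1.82 ± 0.24; limma, adjusted p = 0.0417). The groups stood far apart at both genes, and within Total KO the libraries lay close together at Prc1 but spread more widely at Top2a, where they rest on 7, 15 and 21 reads. Hmmr, a spindle protein that also binds hyaluronan, had 2.55, 4.26 and 3.34 in Total KO and 30.2, 27.6 and 30.1 in EC KO (log2 -2.81 ± 0.39; limma, adjusted p = 0.0417). Its values rest on 2, 5 and 4 reads in Total KO and 5, 33 and 34 in EC KO, so the size of its fall is imprecise.

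A further 2 called genes act in division but were on no list. Ckap2l, a spindle protein, had the largest fall of the 14, with 2.55, 4.26 and 2.5 normalized counts in Total KO and 36.3, 38.5 and 55.7 in EC KO (log2 -3.44 ± 0.39; limma, adjusted p = 0.0268). These values rest on 2, 5 and 3 reads in Total KO and 6, 46 and 63 reads in EC KO, so the size of the fall is imprecise. Iqgap3, a scaffold protein of proliferating cells, had 11.5, 14.5 and 10.8 normalized counts in Total KO and 42.3, 71.1 and 81.3 in EC KO (log2 -2.27 ± 0.31; limma, adjusted p = 0.0417). The groups stood apart at each of these genes even though the EC KO replicate 1 values rest on 5 to 34 reads.

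Members of the list that did not pass ranged widely. The cyclin gene Ccna2 stood at 5.09, 16.2 and 11.7 in Total KO and 66.5, 57.7 and 32.7 in EC KO (-2.22; limma, adjusted p = 0.1), the ubiquitin ligase partner Ube2c at -2.24 and the mitotic kinase Cdk1 at -1.69. Genes of DNA replication lay closer to 0, with the 6 helicase subunit genes of the list between -0.36 (Mcm6) and -0.19 (Mcm3). The difference was negative at 28 of the 30, and the G1 cyclin gene Ccne1 lay furthest the other way (0.99), with overlapping groups. The 4 members under the filter, Ccnb1, Ccne2, Aurkb and Bub1, had means of 1.51 to 9.75 over the 6 libraries. Among the 10 members with a mean of at least 50 over the 6 libraries the median was -0.24 and 1 fell (Mki67). The summed level of the list was 1621 to 1689 in Total KO and 2232 to 2568 in EC KO, so the Total KO mean was 68.1% of the EC KO mean. Library medians of the list, relative to the EC KO mean of each gene, were -1.07, -0.73 and -0.82 in Total KO and 0.03, 0.05 and -0.10 in EC KO.

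**Figure D2:**
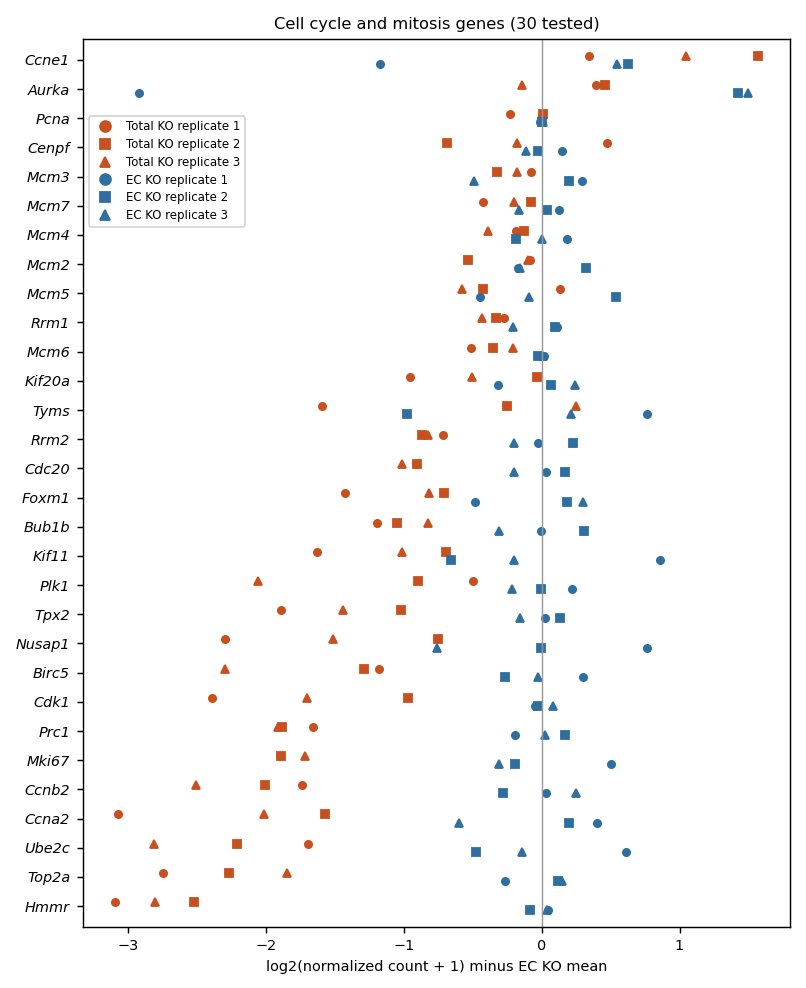
Log2(normalized count + 1) of each of the 30 cell cycle and mitosis genes tested, minus that gene's EC KO mean (x axis, log2 scale), in the 3 Total KO (orange, upper in each row) and 3 EC KO (blue, lower) libraries, with genes ordered by their difference. The Total KO points of Hmmr, Top2a, Ube2c and Ccna2 sit more than 1 unit left of the EC KO mean, while the Mcm genes sit near it.

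The promoters of 4 of the called division genes are shown because these genes fell together and many genes of late cell cycle share a short element, the cell cycle homology region, near their start sites. RefSeq promoter windows (GRCm38.p6, the same coordinates as mm10; 250 bases before to 50 after the start site) were searched for TTTGAA on both strands, a motif picked with the results known. Capitals mark its matches, as TTTGAA or its reverse complement TTCAAA, and no match overlapped another motif searched.
Mki67, chr7:135716330-135716629, minus strand: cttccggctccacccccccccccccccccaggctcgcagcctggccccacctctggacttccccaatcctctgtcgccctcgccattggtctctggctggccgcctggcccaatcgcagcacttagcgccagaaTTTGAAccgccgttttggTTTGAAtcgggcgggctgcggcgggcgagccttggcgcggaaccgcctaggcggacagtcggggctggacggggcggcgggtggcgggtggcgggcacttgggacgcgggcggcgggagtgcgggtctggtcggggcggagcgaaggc
Prc1, chr7:80294201-80294500, plus strand: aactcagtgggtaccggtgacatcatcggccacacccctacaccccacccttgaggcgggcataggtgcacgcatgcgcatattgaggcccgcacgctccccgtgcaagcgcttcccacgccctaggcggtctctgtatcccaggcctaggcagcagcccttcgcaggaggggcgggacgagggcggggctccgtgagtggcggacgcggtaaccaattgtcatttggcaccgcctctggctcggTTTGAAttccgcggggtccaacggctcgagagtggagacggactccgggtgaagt
Top2a, chr11:99024140-99024439, minus strand: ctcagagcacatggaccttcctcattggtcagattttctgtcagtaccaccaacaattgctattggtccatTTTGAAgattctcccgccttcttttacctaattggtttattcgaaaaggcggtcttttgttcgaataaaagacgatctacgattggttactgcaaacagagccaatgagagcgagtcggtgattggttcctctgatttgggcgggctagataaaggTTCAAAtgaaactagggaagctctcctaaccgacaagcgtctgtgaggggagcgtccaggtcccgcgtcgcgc
Ckap2l, chr2:129297163-129297462, minus strand: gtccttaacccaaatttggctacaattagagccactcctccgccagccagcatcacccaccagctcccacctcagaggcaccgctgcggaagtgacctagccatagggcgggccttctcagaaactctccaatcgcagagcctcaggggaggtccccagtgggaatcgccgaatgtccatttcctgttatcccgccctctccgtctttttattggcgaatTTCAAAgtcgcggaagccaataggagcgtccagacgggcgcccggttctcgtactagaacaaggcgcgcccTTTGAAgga
A match was present in the windows of all 6 called division genes, Hmmr and Iqgap3 included. It was present in 14 of the 25 genes of the cell cycle list that had a window (56.0%), in 1320 of 9546 tested genes with a window (13.8%) and in 17.9% of all 32851 windows. In Mki67 the matches began 116 and 98 bases before the start site, and in the Prc1 window shown 5 bases before. Another Prc1 window, with a different start site, held the same match 30 bases before that site. In Top2a the matches began 179 and 23 bases before the start site, and in Ckap2l 30 before and 41 after it. These are matches of letters, and no binding was measured.

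Among clock genes Per3 rose, and the medians of the sets that peak with Dbp and with Arntl had opposite signs, a contrast that was not itself tested. In the clock, ARNTL (BMAL1) pairs with CLOCK or NPAS2 to switch on genes such as Dbp, Per3 and Nr1d2, whose products peak later and in part repress Arntl in turn, so the sets are known to peak at opposite times of day. Of 15 genes that peak with Dbp, all of which passed the filter on low values, 1 rose (Per3) and 14 did not pass (6.67% called higher, against 0.00778% of all genes). Of the 15, 7 had values in Total KO wholly above those in EC KO (46.7%, against 10.7% of all genes), 3 had a negative difference and the median was 0.40. Of the 6 genes that peak with Arntl, 0 passed by limma (3 with unadjusted p below 0.05; 1 by limma-voom, 1 by edgeR and 3 by DESeq2). At 3 of them, Arntl, Npas2 and Clock, the values in Total KO lay wholly below those in EC KO (50%, against 9.0% of all genes). The other members included 2 with a positive difference, up to 0.33, and the median of the 6 was -0.36.

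Per3, a member of the period family of clock proteins (chr4:151003652-151044665, minus strand, mm10), had 726, 502 and 679.8 normalized counts in Total KO and 296, 339 and 293 in EC KO. The lowest Total KO library was above the highest EC KO library, and Per3 averaged 636 ± 118 in Total KO and 309 ± 25.6 in EC KO (SD, n = 3 each; log2 1.02 ± 0.14; limma, adjusted p = 0.0417). Per3 no longer passed without EC KO replicate 1 (adjusted p = 0.101), without EC KO replicates 2 or 3 (0.143 and 0.108) or without Total KO replicate 3 (0.271), with a difference of 0.92 to 1.18 over the 6 ways of leaving out 1 library. Its promoter window is shown because it is the only called clock gene, and it holds 2 exact matches, in capitals, to the D-box element TTATGTAA, which Dbp family proteins bind.
Per3, chr4:151044616-151044915, minus strand: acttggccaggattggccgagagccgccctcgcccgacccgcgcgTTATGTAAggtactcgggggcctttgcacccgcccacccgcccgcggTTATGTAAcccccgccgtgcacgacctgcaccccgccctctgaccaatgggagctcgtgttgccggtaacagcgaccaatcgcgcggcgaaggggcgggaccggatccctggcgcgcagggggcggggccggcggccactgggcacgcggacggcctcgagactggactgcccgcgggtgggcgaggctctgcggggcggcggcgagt
The matches began 205 and 158 bases before the start site. The D-box letters, or their reverse complement TTACATAA, were in 0.938% of all 32851 windows and in 61 of 9546 tested genes with a window (0.639%), and of the 11 Dbp-side genes with a window only Per3 had them. The E-box CACGTG, which ARNTL and its partners bind, was in 4 of these 11 windows, against 11.8% of tested genes.

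Dbp, a transcription factor and the clearest output of the clock, had 461, 260.0 and 455 normalized counts in Total KO and 163, 156 and 109.6 in EC KO. Its groups did not overlap, but it did not pass (log2 1.42 ± 0.23; limma, adjusted p = 0.0698). Arntl had 211, 300.1 and 146 in Total KO and 549.8, 513 and 593 in EC KO (log2 -1.39 ± 0.22; limma, adjusted p = 0.0634). All 3 Total KO values lay below the lowest EC KO value, with Total KO replicate 2 the highest of them at Arntl and the lowest of the 3 Total KO libraries at Dbp. Tests on the reads called both genes (edgeR, adjusted p = 0.0416 for Dbp and 0.0411 for Arntl). Npas2, the partner of ARNTL, had 49.6, 82.7 and 44.2 in Total KO and 115, 146 and 127 in EC KO (-1.17, adjusted p = 0.108 by limma), and Clock stood at -0.53. On the Dbp side, the repressor genes Nr1d2 (0.49) and Bhlhe41 (0.57) did not overlap between the groups, and neither did Nr1d1 (0.22), whereas Per2 (0.40) did. Library medians of the Dbp side, relative to the EC KO mean, were 0.57, 0.15 and 0.36 in Total KO and -0.01, 0.11 and -0.09 in EC KO, so that Total KO replicate 2 lay nearest to the EC KO libraries.

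**Figure D3:**
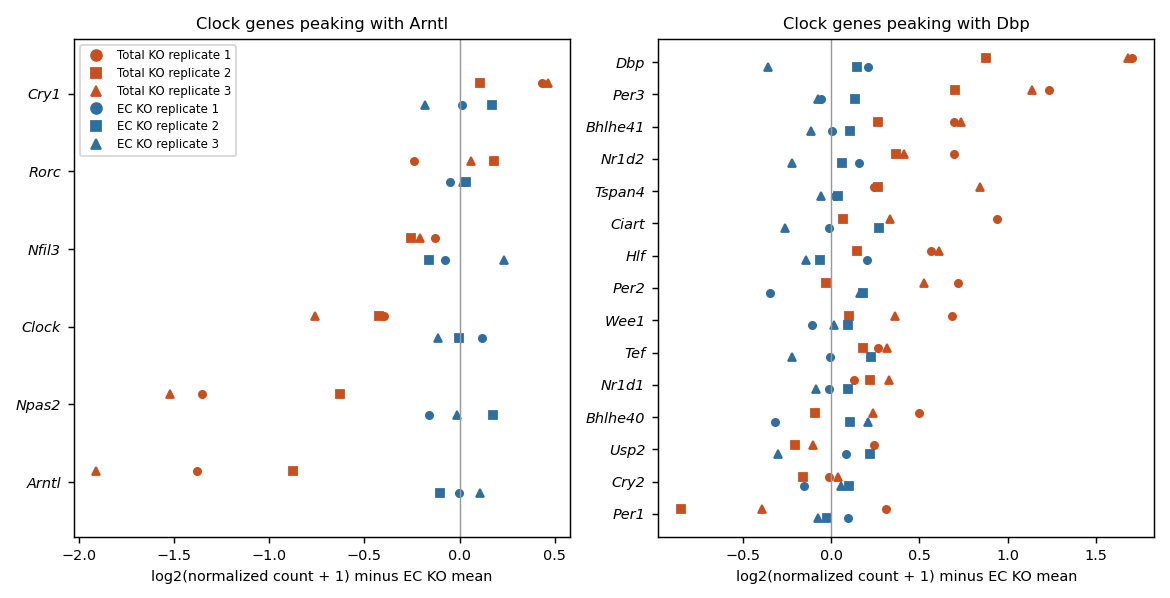
Log2(normalized count + 1) minus the EC KO mean of each gene (x axis, log2 scale) for the 6 clock genes that peak with Arntl (left) and the 15 that peak with Dbp (right), in Total KO (orange, upper in each row) and EC KO (blue, lower) libraries. Arntl, Npas2 and Clock lie left of 0 in all 3 Total KO libraries and Dbp and Per3 right of it, while several others are mixed.

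Genes that respond to glucocorticoids and fasting held the gene of lowest p in the comparison. Fkbp5, a cochaperone that restrains the glucocorticoid receptor and is induced by it (chr17:28399094-28517527, minus strand, mm10), had 1179, 1149 and 1118 normalized counts in Total KO and 1976, 2157 and 2201 in EC KO. The libraries of each group lay close together, and Fkbp5 averaged 1149 ± 30.5 in Total KO and 2111 ± 119 in EC KO (SD, n = 3 each; log2 -0.88 ± 0.07; limma, adjusted p = 0.0049). It passed under 19 of 20 other settings and not without EC KO replicate 2 (adjusted p = 0.0754). Of the 25 genes of the list, all of which passed the filter, 2 fell (Fkbp5 and Cdkn1a) and 23 did not pass (8% called lower, against 0.101% of all genes), with a median of -0.38. Values in Total KO lay wholly below those in EC KO at 4 members (16.0%, against 9.0% of all genes), among them the transcription factor gene Foxo1 (-0.43) and the sulfotransferase gene Sult1a1 (-0.60; limma, adjusted p = 0.121).

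Within Total KO this list was split. Library medians relative to the EC KO mean were 0.01, -0.51 and -0.52 in Total KO and 0.09, 0.00 and -0.00 in EC KO. By the median, Total KO replicate 1 thus stood at the level of EC KO and the other Total KO libraries below it. The summed level, which is weighted to the most abundant members, went the other way. It was 49490, 82720 and 82408 in Total KO and 86114, 95223 and 69637 in EC KO, with Total KO replicate 1 the lowest. The same library stood apart, on the low side, at genes that fasting raises through PPAR signalling. Pdk4, the kinase that shuts off pyruvate dehydrogenase when fat is burnt, had 10175, 46934 and 49344 normalized counts in Total KO and 36477, 51477 and 25641 in EC KO. Angptl4, a secreted inhibitor of lipoprotein lipase, had 304, 1824 and 1813 in Total KO and 659, 783 and 458 in EC KO. Ucp3, a mitochondrial carrier, had 542, 2008 and 2157 in Total KO and 1384, 1529 and 582 in EC KO. In each gene Total KO replicate 1 was under the lowest EC KO library and the other 2 Total KO libraries were above at least 2 of the 3 EC KO libraries, so no single direction described the group. Differences were -0.34 ± 0.52 for Pdk4, 0.70 ± 0.58 for Angptl4 and 0.31 ± 0.51 for Ucp3 (limma, adjusted p = 0.802, 0.617 and 0.819). Without Total KO replicate 1, Angptl4 stood at 1.56, Pdk4 at 0.40 and Ucp3 at 0.96 (limma, adjusted p = 0.0172, 0.493 and 0.288). That library was singled out by these same values, so leaving it out is no separate test of these genes.

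**Figure D4:**
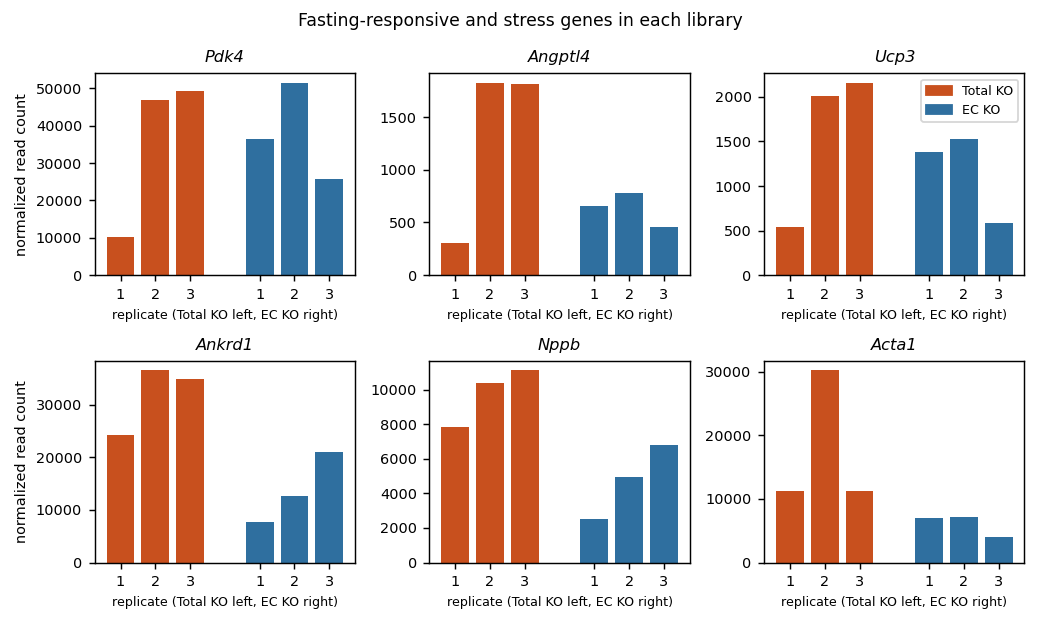
Normalized read counts (y axis, linear from 0; bars are single libraries) of 3 fasting-responsive genes (Pdk4, Angptl4, Ucp3) and 3 cardiac stress genes (Ankrd1, Nppb, Acta1) in Total KO (orange, left) and EC KO (blue, right) replicates 1 to 3. Total KO replicate 1 is the lowest of the 6 bars for each fasting-responsive gene, while Total KO bars lie above EC KO bars for each stress gene.

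Cdkn1a, which encodes the cell cycle inhibitor p21 and is a target of both p53 and glucocorticoids, was lower in Total KO hearts. It had 1296, 1241 and 638 normalized counts in Total KO and 3438, 2831 and 3107 in EC KO (log2 -1.63 ± 0.23; limma, adjusted p = 0.0417). All Total KO values lay below all EC KO values, and Total KO replicate 3 was the lowest by far. Trp53inp1, a p53-induced stress protein, had 269.9, 227 and 206 in Total KO and 568, 651 and 411 in EC KO (log2 -1.19 ± 0.17; limma, adjusted p = 0.0417). Of 23 p53 targets tested, these 2 fell (8.7%, against 0.101% of all genes) and 21 did not pass. The median was 0.01, with 2 members wholly higher and 2 wholly lower in Total KO (8.7% each way, against 10.7% and 9.0% of all genes), and Mdm2 stood at -0.14, Ccng1 at 0.17 and Bax at 0.30. Neither called gene passed without EC KO replicate 1 (adjusted p = 0.101 for both by limma) or without EC KO replicate 2 (0.19 for both). The same held without Total KO replicate 2 (0.0833 for Cdkn1a and 0.142 for Trp53inp1). Cdkn1a also did not pass without EC KO replicate 3 (0.108), nor Trp53inp1 without Total KO replicate 3 (0.271).

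No endothelial marker passed the test, though most differences were negative. Of 24 endothelial markers, all above the filter, 0 passed by limma (12 with unadjusted p below 0.05; 0 by limma-voom, 0 by edgeR and 4 by DESeq2). Values of the groups did not overlap at 10 of them, all lower in Total KO (41.7%, against 9.0% of all genes), 21 of the 24 differences were negative, and the median was -0.25. The summed level was 35551 to 37844 in Total KO and 42617 to 50011 in EC KO, so the Total KO mean was 80% of the EC KO mean. Long RNAs retained in the nucleus, which vary with RNA quality and the share of nuclear RNA, stood lower as well. Of 13 such genes, 10 were tested and 0 passed by limma (2 with unadjusted p below 0.05; 0 by limma-voom, 0 by edgeR and 0 by DESeq2), the median was -0.29, and 2 lay wholly lower in Total KO (20.0%, against 9.0% of all genes). The summed level of all 13 was 66089 to 77296 in Total KO and 68258 to 109860.0 in EC KO, overlapping, with a Total KO mean at 77.6% of the EC KO mean. Library medians of these RNAs were -0.28, -0.22 and -0.24 in Total KO and 0.20, -0.02 and -0.13 in EC KO, and their part in the endothelial values was not tested. Pecam1, the adhesion protein CD31, had 3101, 3404 and 3051 normalized counts in Total KO and 4048, 4554 and 4051 in EC KO (-0.40 ± 0.08; limma, adjusted p = 0.0999). Cdh5, the cadherin of endothelial junctions, stood at -0.35, Cd93 at -0.45 and the angiopoietin receptor gene Tek, whose promoter drives Tie2-cre, at -0.35. The sialomucin gene Emcn stood the other way (0.14).

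The capillary genes of fatty acid transport had a median near 0. Of 14 members, all above the filter, 0 passed by limma (3 with unadjusted p below 0.05; 0 by limma-voom, 0 by edgeR and 2 by DESeq2), and the median was 0.01. Values in Total KO lay wholly below those in EC KO at 3 members (21.4%, against 9.0% of all genes), among them Cd36 and the metalloproteinase inhibitor gene Timp4 (-0.44), and wholly above at 1 (7.14%, against 10.7%). Gpihbp1, which carries lipoprotein lipase across the capillary wall, had 1924, 2299 and 2297 normalized counts in Total KO and 2930.5, 2522 and 2229 in EC KO. Fabp4, a fatty acid binding protein of capillaries and adipocytes, had 12562, 17752 and 19043 in Total KO and 15359, 13979 and 12778 in EC KO. Meox2, a transcription factor of heart capillaries that is known to drive Cd36, had 176, 207 and 259 in Total KO and 254, 314 and 232 in EC KO. The groups overlapped at Gpihbp1, Fabp4 and Meox2, with differences of -0.23, 0.21 and -0.32.

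The other 4 called genes were lower in Total KO. Plat, the tissue plasminogen activator that endothelial cells release (chr8:22757727-22782844, plus strand, mm10), had 253, 282 and 259 normalized counts in Total KO and 447, 472 and 473 in EC KO (log2 -0.81 ± 0.09; limma, adjusted p = 0.0268). Spock2, a proteoglycan of the extracellular matrix, had 383, 335 and 289 in Total KO and 761, 722 and 667 in EC KO (log2 -1.10 ± 0.12; limma, adjusted p = 0.022). The Total KO mean was 57% of the EC KO mean for Plat and 46.8% for Spock2. Rgs5, a regulator of G protein signalling and a marker of pericytes, had 2972, 2682 and 2562 in Total KO and 3885, 4234 and 3875 in EC KO (log2 -0.55 ± 0.08; limma, adjusted p = 0.0417). Pcp4l1, a small IQ-motif protein, had 4469, 5241 and 4479 in Total KO and 6707, 6959 and 7583 in EC KO (log2 -0.58 ± 0.08; limma, adjusted p = 0.0417).

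Other pericyte and smooth muscle markers were mixed. Of 19 pericyte and smooth muscle markers, 1 fell (5.26%, against 0.101% of all genes) and 18 did not pass, and their median was -0.01. Values in Total KO lay wholly below those in EC KO at 4 (21.1%, against 9.0% of all genes) and wholly above at 1 (5.26%, against 10.7%). The pericyte receptor gene Pdgfrb had 1944, 2052 and 1989 normalized counts in Total KO and 2465, 2562 and 2161 in EC KO (-0.26; limma, adjusted p = 0.236), whereas the pericyte proteoglycan gene Cspg4 overlapped (0.09). Col4a1, the basement membrane collagen that endothelial cells and pericytes make, had 5441, 6379 and 5582 in Total KO and 6918, 7863 and 7177 in EC KO (-0.34; limma, adjusted p = 0.165).

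No gene of cardiac wall stress passed the test, though several stood higher in Total KO. Of 20 stress and fetal genes, 18 were tested and 0 passed by limma (8 with unadjusted p below 0.05; 0 by limma-voom, 0 by edgeR and 2 by DESeq2). At 7 of the 18 the Total KO values lay wholly above the EC KO values (38.9%, against 10.7% of all genes), and the median was 0.27. Ankrd1, a stretch-responsive repressor and titin-binding protein, had 24274, 36606 and 34986 normalized counts in Total KO and 7776, 12683 and 21096 in EC KO (1.30 ± 0.30; limma, adjusted p = 0.149). Nppb, which encodes B-type natriuretic peptide, had 7847, 10391 and 11126 in Total KO and 2526, 4966 and 6817 in EC KO (1.14 ± 0.30; limma, adjusted p = 0.181). Acta1, the skeletal actin of fetal and stressed hearts, had 11255, 30215 and 11255 in Total KO and 7045, 7191 and 4055 in EC KO (1.41 ± 0.36; limma, adjusted p = 0.178). In these genes the groups stood apart, but replicates spread widely within a group, from 7776 to 21096 for Ankrd1 in EC KO. Nppa, atrial natriuretic peptide, overlapped, with 17338, 12343 and 6797 in Total KO and 5317, 6786 and 8119.9 in EC KO, and so did the fetal myosin gene Myh7 (-0.09). Xirp2, an actin-binding protein of the intercalated disc, had 9686, 9979 and 8507 in Total KO and 6725, 7209 and 7151 in EC KO, a small and tight difference (0.42 ± 0.08; limma, adjusted p = 0.0956).

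No heat shock or chaperone gene passed either. Of 24 heat shock and chaperone genes, all above the filter, 0 passed by limma (10 with unadjusted p below 0.05; 0 by limma-voom, 0 by edgeR and 3 by DESeq2), 9 had Total KO values wholly above those in EC KO (37.5%, against 10.7% of all genes), and the median was 0.17. The summed level was 115651 to 120395 in Total KO and 97116 to 100056 in EC KO, with no overlap. Fkbp4, a cochaperone that opposes FKBP5 on steroid receptors, had 4848, 5555 and 5689 normalized counts in Total KO and 3837, 4194 and 4020.2 in EC KO (0.41 ± 0.08; limma, adjusted p = 0.0999). Hsph1, of the HSP110 family, stood at 0.73, the mitochondrial chaperonin gene Hspd1 at 0.33 and the small heat shock protein gene Cryab at 0.36. Genes of the unfolded protein and integrated stress response were mixed, with 3 members at an unadjusted p under 0.05 by limma in each direction. Of 32 tested, 0 passed by limma (6 with unadjusted p below 0.05; 1 by limma-voom, 1 by edgeR and 2 by DESeq2), 21 differences were negative and the median was -0.06. Total KO values lay wholly below EC KO at 4 (12.5%, against 9.0% of all genes) and wholly above at 2 (6.25%, against 10.7%). The summed level of all 35 members in the table was 88.7% of that in EC KO for Total KO, with overlap. Its gene of lowest p was nonetheless higher in Total KO: the calcium-binding chaperone gene Calr had 3191, 2937 and 3106 in Total KO and 2320.2, 2290.4 and 2310.2 in EC KO (0.42 ± 0.06; limma, adjusted p = 0.0634). Herpud1, of the degradation machinery of the endoplasmic reticulum, lay lower, with 6919, 7847 and 7018 in Total KO and 11909, 12419.6 and 8703 in EC KO (-0.59 ± 0.13; limma, adjusted p = 0.121).

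No fibroblast marker passed the test. Of 20 fibroblast markers, all above the filter, 0 passed by limma (8 with unadjusted p below 0.05; 0 by limma-voom, 0 by edgeR and 2 by DESeq2), 9 had Total KO values wholly above EC KO (45.0%, against 10.7% of all genes) and the median was 0.25. Their summed level overlapped, at 50904 to 59735 in Total KO and 51178 to 54525 in EC KO, and so did the library medians, at 0.09, 0.39 and 0.20 in Total KO and 0.09, 0.02 and -0.07 in EC KO. Clec3b, a plasminogen-binding lectin, stood at 0.50 and Pi16, a marker of adventitial fibroblasts, at 0.53. Of 35 tested genes of the extracellular matrix, 0 passed by limma (17 with unadjusted p below 0.05; 0 by limma-voom, 0 by edgeR and 3 by DESeq2), with 11 wholly higher (31.4%, against 10.7% of all genes) and 3 wholly lower in Total KO (8.57%, against 9.0%). Postn, the matricellular protein periostin, had 536, 946 and 542 normalized counts in Total KO and 393, 405 and 372 in EC KO (0.74; limma, adjusted p = 0.181), with Total KO replicate 2 the highest. Without Total KO replicate 2 the fibroblast median was 0.15.

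Immune genes gave no call by limma. Of 20 antigen presentation genes tested, 0 passed by limma (6 with unadjusted p below 0.05; 0 by limma-voom, 0 by edgeR and 0 by DESeq2) and 6 had Total KO values wholly above EC KO (30.0%, against 10.7% of all genes), among them the class II genes H2-Aa (0.41) and H2-Ab1 (0.39) and their activator Ciita (1.37). Of 19 macrophage and monocyte markers tested, 0 passed by limma (6 with unadjusted p below 0.05; 0 by limma-voom, 0 by edgeR and 1 by DESeq2). Their median was 0.24, with 0 wholly higher and 2 wholly lower in Total KO (10.5%, against 9.0% of all genes). Sums over all 20 markers in the table were 6398 to 8732 in Total KO and 6189 to 7159.8 in EC KO. The macrophage scavenger receptor gene Cd163 lay the other way, with 425, 426 and 308 normalized counts in Total KO and 562, 521 and 600.3 in EC KO (-0.55; limma, adjusted p = 0.165). Only 2 of 18 lymphocyte markers in the table passed the filter. The sum over all 18 was 67.6 to 109 in Total KO and 81.1 to 96.7 in EC KO.

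**Figure D5:**
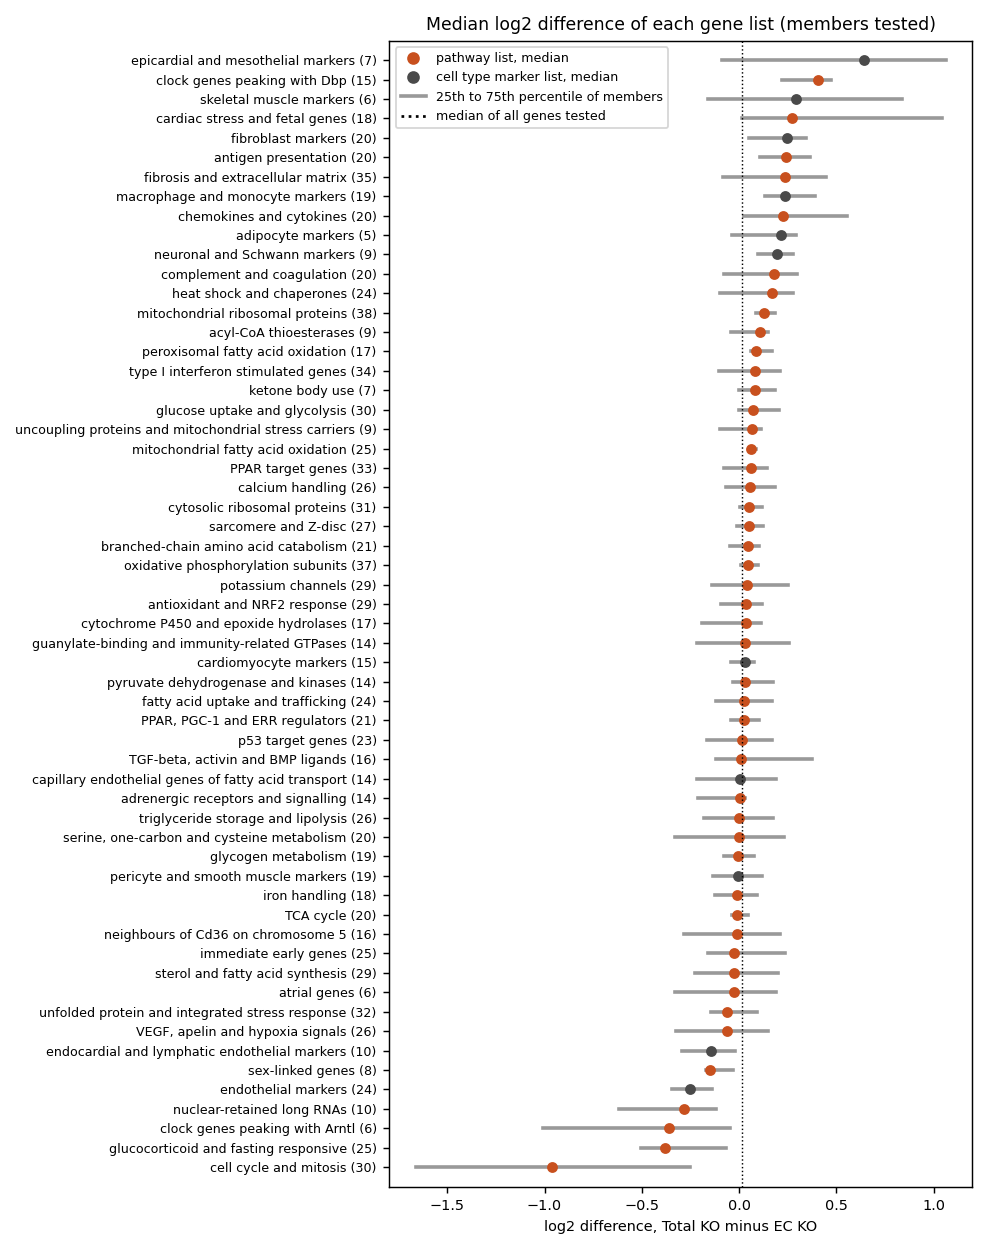
Median log2 difference, Total KO minus EC KO (x axis), of each pathway list (orange) and cell type marker list (dark grey) with at least 5 members tested, with the number tested in brackets; grey bars span the 25th to 75th percentile of members and the dotted line is the median of all genes tested (0.01). The cell cycle list is the lowest at -0.96, and lists of fuel metabolism lie close to the dotted line.

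In the lists of fuel metabolism, which CD36 feeds, no gene passed by limma, and medians lay near that of all genes (0.01). Of 25 genes of mitochondrial fatty acid oxidation tested, 0 passed by limma (1 with unadjusted p below 0.05; 0 by limma-voom, 0 by edgeR and 0 by DESeq2), and the median was 0.06. The difference was positive at 21 of the 25, against 6776 of 12858 over all genes. Of the 25, 4.0% lay wholly higher in Total KO and 0.0% wholly lower, against 10.7% and 9.0% of all genes. For peroxisomal oxidation 15 of 17 differences were positive, with a median of 0.09, 17.6% wholly higher and 0.0% wholly lower. Of 24 genes of fatty acid uptake and trafficking tested, 0 passed by limma (5 with unadjusted p below 0.05; 0 by limma-voom, 0 by edgeR and 1 by DESeq2), with a median of 0.03. Lpl, the lipase that frees fatty acids from lipoproteins, had 167077, 153839 and 162561 normalized counts in Total KO and 195194, 167728 and 149434 in EC KO. Fabp3, the heart fatty acid binding protein, had 15565, 18058 and 18537 in Total KO and 15668, 14916 and 14038 in EC KO. Both genes overlapped between groups, with differences of -0.08 ± 0.11 and 0.22 ± 0.08. Caveolin Cav1 (-0.28) and the acyl-CoA synthetase gene Acsl4 (-0.40) were lower in every Total KO library than in any EC KO library, without passing. Of the uptake and trafficking genes, 12.5% lay wholly lower in Total KO and 4.17% wholly higher, against 9.0% and 10.7% of all genes. Of 33 PPAR target genes tested, 0 passed by limma (4 with unadjusted p below 0.05; 0 by limma-voom, 0 by edgeR and 2 by DESeq2), and the median was 0.06. Differences were positive at 22 of the 33, while 12.1% lay wholly lower in Total KO and 3.03% wholly higher, against 9.0% and 10.7% of all genes.

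Among genes of lipid storage, the perilipins Plin4 (-0.38) and Plin5 (-0.34), which coat lipid droplets, lay lower in Total KO and did not overlap, while Plin2 overlapped, with 1200.4, 3024 and 2522 normalized counts in Total KO and 1668, 2128 and 1764 in EC KO. Agpat2, an enzyme of triglyceride synthesis, lay higher, with 936, 1371 and 1345 in Total KO and 689, 871 and 741 in EC KO (0.65 ± 0.15; limma, adjusted p = 0.149). Among 29 genes of sterol and fatty acid synthesis, 0 passed by limma (5 with unadjusted p below 0.05; 1 by limma-voom, 0 by edgeR and 1 by DESeq2). The stearoyl-CoA desaturase gene Scd1, which makes monounsaturated fatty acids, had 160.4, 187 and 142 in Total KO and 254, 264 and 275 in EC KO (-0.70 ± 0.13; limma, adjusted p = 0.0956). Its sister gene Scd2 (-0.43) and the elongase gene Elovl5 (-0.37) lay on the same side, each with no overlap. Of the synthesis genes, 17.2% lay wholly lower in Total KO and 3.45% wholly higher. For genes of triglyceride storage and lipolysis the shares were 23.1% and 11.5%, against 9.0% and 10.7% of all genes.

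Genes of glucose use likewise had a median near that of all genes. Of 30 genes of glucose uptake and glycolysis tested, 0 passed by limma (6 with unadjusted p below 0.05; 0 by limma-voom, 0 by edgeR and 0 by DESeq2), and the median was 0.07. The insulin-responsive glucose transporter gene Slc2a4 had 10255, 9679.6 and 10340.0 normalized counts in Total KO and 9172, 9974 and 9491 in EC KO, and the basal transporter gene Slc2a1 had 490.1, 428 and 525 in Total KO and 465, 518 and 502 in EC KO. Both overlapped, with differences of 0.08 ± 0.07 and -0.05 ± 0.10. Hk1, a hexokinase, had 3769, 3387 and 3687 in Total KO and 2882, 2891 and 3015 in EC KO (0.30 ± 0.07, adjusted p = 0.148 by limma). Pdhx, a subunit of the pyruvate dehydrogenase complex, stood at 0.26 with no overlap. Total KO values lay wholly above EC KO at 13.3% of the glucose uptake and glycolysis genes. The share was 28.6% of the 14 genes of pyruvate dehydrogenase and its kinases, against 10.7% of all genes.

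Genes of the mitochondrial ribosome showed a small shift across many members. Of 38 tested, 0 passed by limma (9 with unadjusted p below 0.05; 0 by limma-voom, 0 by edgeR and 0 by DESeq2), yet 17 had Total KO values wholly above EC KO (44.7%, against 10.7% of all genes), 35 had a positive difference and the median was 0.13. Their summed level was 37159 to 38341 in Total KO and 33094 to 34447 in EC KO, so the Total KO mean was 111% of the EC KO mean with no overlap. Mrps23 was the clearest, with 3046, 3196 and 3138 normalized counts in Total KO and 2363, 2446 and 2669 in EC KO (0.33 ± 0.07; limma, adjusted p = 0.121). Over 37 nuclear-encoded subunits of oxidative phosphorylation the median was 0.04, with 32 positive differences. Of these subunits, 8 lay wholly higher in Total KO (21.6%, against 10.7% of all genes). Over 31 cytosolic ribosomal proteins the median was 0.05. Bnip3, a receptor for the removal of mitochondria, had 2252, 2149 and 2306 in Total KO and 2912, 3380.0 and 3947 in EC KO (-0.60 ± 0.10; limma, adjusted p = 0.081).

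Since only Per3 rose, the genes of lowest p among those higher in Total KO are given here as not called. Beside Calr and Dbp, they were Ccrl1, a chemokine scavenging receptor, Ptpn3, a protein tyrosine phosphatase, Clu, the secreted chaperone clusterin, Nkain1, Telo2, which stabilizes kinases of the mTOR and DNA damage families, Lrrc15, Igfbp5, which binds insulin-like growth factors, and Mylk4, a myosin light chain kinase. Clu had 18830.2, 22189 and 19852 normalized counts in Total KO and 15184, 13145 and 13861 in EC KO (0.53 ± 0.09; limma, adjusted p = 0.0672). Ccrl1 had 91.7, 97.2 and 78.4 in Total KO and 42.3, 30.9 and 34.5 in EC KO (1.29 ± 0.20; limma, adjusted p = 0.0634). Telo2 had 225, 222 and 224 in Total KO and 127, 146 and 134 in EC KO (0.72 ± 0.12; limma, adjusted p = 0.0678). The Total KO values of Telo2 were nearly equal to each other. The other 5 stood at 0.47 (Ptpn3), 0.75 (Nkain1), 0.80 (Lrrc15), 0.51 (Igfbp5) and 0.51 (Mylk4), and at none of these genes did the groups overlap.

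Other differences short of the test fell in small groups. The early response genes Fos (113, 103 and 87.6 normalized counts in Total KO and 60.4, 47.7 and 53 in EC KO; 0.90 ± 0.18) and Myc (0.76), and the matricellular gene Cyr61 (0.54), lay higher in Total KO with no overlap, whereas the median of the 25 immediate early genes tested was -0.02. Cdo1, which breaks down cysteine, had 158, 159 and 99.3 in Total KO and 284, 313 and 568 in EC KO (-1.44 ± 0.27; limma, adjusted p = 0.0956). The folate enzyme gene Aldh1l1 stood at -0.66 and the serine synthesis gene Psat1 at 0.84. Of 16 neighbours of Cd36 on chromosome 5 tested, Cd36 among them, 0 passed by limma (6 with unadjusted p below 0.05; 0 by limma-voom, 0 by edgeR and 1 by DESeq2), and the median was -0.01. Values in Total KO lay wholly below those in EC KO at 3 of the 16 (18.8%, against 9.0% of all genes). They lay wholly above at 2 (12.5%, against 10.7%). Positive differences, up to 0.72, numbered 8, and negative ones 8. Rsbn1l had 312, 288 and 280.3 in Total KO and 411, 397 and 346 in EC KO (-0.39, adjusted p = 0.19 by limma). Magi2 stood at -0.55, and neither Rsbn1l nor Magi2 overlapped between the groups.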

How the data were processed

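RNA of whole hearts was sequenced from 400 ng of total RNA after ribosomal RNA depletion with a stranded kit, per the labels' protocols. The submitters' processing notes name TopHat2 (no version), HTSeq 0.8.0, DESeq2 (as 3.5) and the mm10 build; strand setting, annotation and filters are not given in the sources used here. The deposited signal values are gene-level read counts that the authors divided by a factor per library. Every value (100%) was within 0.05 of a whole number of reads once divided by the worth of 1 read, which gave the reads themselves. The table held 23420 genes, with dates for symbols in 27 and 2 duplicated symbols. No 2 libraries were duplicates.

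Log2(value + 1) of genes with a mean of at least 10 was fitted with limma 3.58.1 (R 4.3.3, trended prior) to the 6 libraries, with no covariate. Fold changes are thus on the log2(value + 1) scale, which understates those of low genes. limma-voom, edgeR 4.0.16 and DESeq2 1.42.0 on recovered reads were among 20 alternatives. The steps were tested on simulated data.

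The groups compared, the 61 gene lists and the motifs were chosen with earlier results of these data known. Named were Cd36, up to 12 called genes of largest difference per direction (no overlap, and the higher group averaging 50 or more), 10 of lowest p where fewer were called, called list members, the 3 of lowest p per list and 15 genes by name. Outside this rule, chosen after values were seen, were Ckap2l, Ccna2, Per2, Nr1d1, Wisp2, Aqp8, Foxo1, Bax, Bhlhe41, Ccne1, Ccng1, Cdk1, Cspg4, Emcn, Mcm3, Mcm6, Mdm2, Tek, Ube2c. Genes under the filter, such as Xist, were also outside it. Of 1234 list symbols, 13 were matched through RefSeq synonyms (Ciart as Gm129, for example) and 4 were not matched. Gene positions are from GENCODE M21 and promoters from RefSeq, both on GRCm38, the assembly of mm10.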

Additional observations from a re-analysis of the deposited data

How the results depend on the processing

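The count of genes called between Total KO and EC KO depended on the fit. It was 14 (1 higher, 13 lower) by limma, 4 (0 higher, 4 lower) with no filter on low values, 4 (0 higher, 4 lower) at a mean of at least 50, 5 (0 higher, 5 lower) in a fit to all 11 libraries, 108 (45 higher, 63 lower) with a weight per library, 41 (12 higher, 29 lower) by limma-voom, 40 (11 higher, 29 lower) by edgeR and 145 (57 higher, 88 lower) by DESeq2. Quantile normalization gave 2 higher genes. Leaving out 1 library at a time gave 0 to 53 genes, 0 to 21 higher and 0 to 32 lower, with no call without EC KO replicate 2. Leaving out both replicates 1, the shallowest library of each group, gave 104 (47 higher, 57 lower), with all 14 genes among them. All 14 were also among the calls of limma-voom, edgeR and DESeq2. No called gene changed direction under the alternatives in which it was tested. Fkbp5 lost its call in 1 alternative, Ckap2l and Spock2 in 3 each, and the other 11 genes in 5 to 8 each. Causes were not tested.

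Cd36 kept its direction throughout, at -0.48 to -0.32 with 1 library left out and -0.26 without both replicates 1, and was called by DESeq2 (-0.41). Some genes that were not called changed sign. With 1 library or both replicates 1 left out, the log2 difference was -0.17 to 0.025 for Lpl, -0.47 to 0.19 for Myh7, -0.74 to 0.41 for Pdk4, -0.083 to 0.58 for Plin2, -0.11 to 0.036 for Slc2a1 and -0.13 to 1.14 for Ucp3. Slc2a4 was at -0.034 with quantile normalization. No paired analysis was possible because nothing in the labels ties a Total KO heart to an EC KO heart. Depth limited EC KO replicate 1, in which 1 read was worth 6.04 normalized counts.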

Other observations

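Some single genes varied within a group or between groups. Aqp8 and Wisp2 were picked after their values were seen, whereas Nnt was among the genes given by name. Aqp8, a water channel gene, had 95.5, 110.0 and 104 normalized counts in Total KO and 12.1, 48.5 and 28.3 in EC KO (log2 difference ± SE 1.96 ± 0.41; limma, adjusted p = 0.112). Wisp2, a matricellular gene of the CCN family, had 335, 627 and 659 in Total KO and 103, 191 and 255 in EC KO (1.59 ± 0.33; limma, adjusted p = 0.118). The groups did not overlap at either gene. Nnt, the mitochondrial transhydrogenase whose coding sequence is broken in the C57BL/6J strain, was present in every library, with 24749.6, 13709 and 21197 in Total KO and 26834, 26947 and 27459 in EC KO (-0.49 ± 0.18; limma, adjusted p = 0.297). Total KO replicate 2 was the lowest at Nnt, while the EC KO libraries were nearly equal. The Y-linked gene Ddx3y stood at 1260.3, 1249.9 and 1065 in Total KO and 1396, 1434 and 1193 in EC KO, and Xist at 2.55, 7.67 and 2.5 in Total KO and 18.1, 17.6 and 0.884 in EC KO, so that all 6 libraries held Ddx3y far above Xist.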
